A study of Mus musculus with 4 samples.

Results

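A set of 10 Hox genes of the Hoxa and Hoxb clusters, Hoxa5, Hoxa6, Hoxa7, Hoxa9, Hoxa10, Hoxb2, Hoxb3, Hoxb4, Hoxb5 and Hoxb6, was followed in sorted fetal liver stem and progenitor cells with and without PICH. They were taken by gene symbol, 10 of the 39186 genes in the deposited table, and all 10 were found. PICH is a DNA translocase of the ultrafine DNA bridges that link sister chromatids in anaphase, and its gene in the mouse is Ercc6l, on the X chromosome. The question was how much of each Hox transcript was present in the absence of PICH.

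RNA sequencing was done on LSK cells of fetal liver from C57BL/6 mice, in 2 Pich-WT and 2 Pich-KO samples. LSK cells lack surface markers of mature blood lineages and carry Sca-1 and c-Kit, a population that holds hematopoietic stem cells together with multipotent progenitors. The Pich-KO line carried a deletion of 10 bases at the start of exon 2 of Ercc6l, made with a TALEN nuclease in the whole animal. By the labels, the 2 groups differed in that allele and shared strain, tissue and sort. The labels give neither the day of gestation, nor the sex, nor the number of embryos behind each sample, so the p-values measure the spread between these samples, which may in part be technical.

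Hox genes encode homeodomain transcription factors that are placed side by side in clusters, and the order of the genes along a cluster follows the order in which they are used along the body axis. In blood, genes of the middle and 5′ part of the Hoxa cluster and of the 3′ and middle part of the Hoxb cluster are used in stem and progenitor cells and are switched off as cells mature. HOX proteins bind DNA with TALE cofactors of the PBX and MEIS families, and their genes are held open by MLL-type methyltransferases and kept silent by Polycomb complexes.

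Each sample held between 14703215 and 20933919 reads on genes. Values are normalized counts, that is reads divided by 1 size factor per sample. Fold changes were fitted with limma on log2(normalized count + 1), Pich-KO over Pich-WT, and p-values were adjusted by Benjamini-Hochberg over the 32428 genes tested, with 0.05 as the threshold for a call. Of these genes, 3113 were lower in Pich-KO, a share of 9.6%, and 2459 were higher, a share of 7.58%. The median log2 fold change of all genes tested was 0.02. The exact permutation test of 2 samples against 2 has a smallest two-sided p of 0.333, so it cannot call any single gene. Ercc6l itself read 1142 and 1232 in Pich-KO against 772 and 661 in Pich-WT, log2 fold change 0.73 (SE 0.14, limma adjusted p = 0.00887). The deletion removes only a few bases of the counted sequence, and its effect on the transcript level was not tested. This level therefore does not check the labels. Pich-WT sample 2 had no reads on the Y-linked genes examined, and the other 3 samples had them. The groups may therefore differ in sex as well as in genotype, and the effect of sex was not tested.

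The markers of the sort were present in all samples. Kit, which encodes c-Kit, read 4447 and 2772 in Pich-KO against 2328 and 2513 in Pich-WT, with a limma adjusted p of 0.114. Ly6a, which encodes Sca-1, read 3586 and 2978 in Pich-KO against 901 and 1061 in Pich-WT and was higher in Pich-KO by 1.74 on the log2 scale (SE 0.14, limma adjusted p = 0.000167). Markers of other fetal liver cells differed between the groups as well. All 12 macrophage markers and all 10 endothelial markers were lower in Pich-KO, as were 9 of 10 erythroid, 6 of 8 hepatoblast and 3 of 6 megakaryocyte markers, whereas 0 of 11 mesenchymal markers were lower and 1, Col1a1, was higher (log2 fold change 1.30). The log2 fold changes of those called ran from −7.22 (Marco) to −1.33 (Csf1r) for macrophages and from −5.39 (Lyve1) to −1.50 (Pecam1) for endothelium. They ran from −3.17 (Hbb-bs) to −0.73 (Klf1) for erythroid cells, from −2.22 (Trf) to −0.81 (Apoa2) for hepatoblasts and from −3.12 (Pf4) to −0.86 (Itga2b) for megakaryocytes. Of 6 genes of the lineage markers excluded in the sort, 2 were lower, among them Cd4 (−2.50), and 0 were higher. The summed normalized count of the endothelial list was 3525 and 1919 in Pich-KO against 42263 and 28999 in Pich-WT. That of the macrophage list was 9132 and 7915 against 55455 and 56359. None of these markers was at 0 in both samples of a group. In bulk samples, fewer cells of a type and less RNA per cell cannot be told apart.

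Of the 10 Hox genes, 3 fell in Pich-KO LSK cells, namely Hoxa5, Hoxa10 and Hoxb5, by factors of 4.22, 4.98 and 6.94 in reads pooled over the samples of a group and scaled by their size factors. Hoxa7 and Hoxa9, the members with the highest counts, differed by factors of 1.01 and 1.16 on the same scale and did not pass the test. None of the 10 rose. The share of members called lower, 3 of 10, stands beside 9.6% of all genes tested. That share depends on the genes tested. After its stricter filter on low counts, edgeR (TMM) tested 16608 genes and called 20.7% of them lower, with the same 3 members. All 10 passed the filter on low values, all 10 fitted fold changes were negative, and their median was −1.24 on the log2 scale. In 8 of the 10, both Pich-KO samples were below both Pich-WT samples, which was so for 27.2% of all genes tested, and the exceptions were Hoxa7 and Hoxb3.

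**Figure D1:**
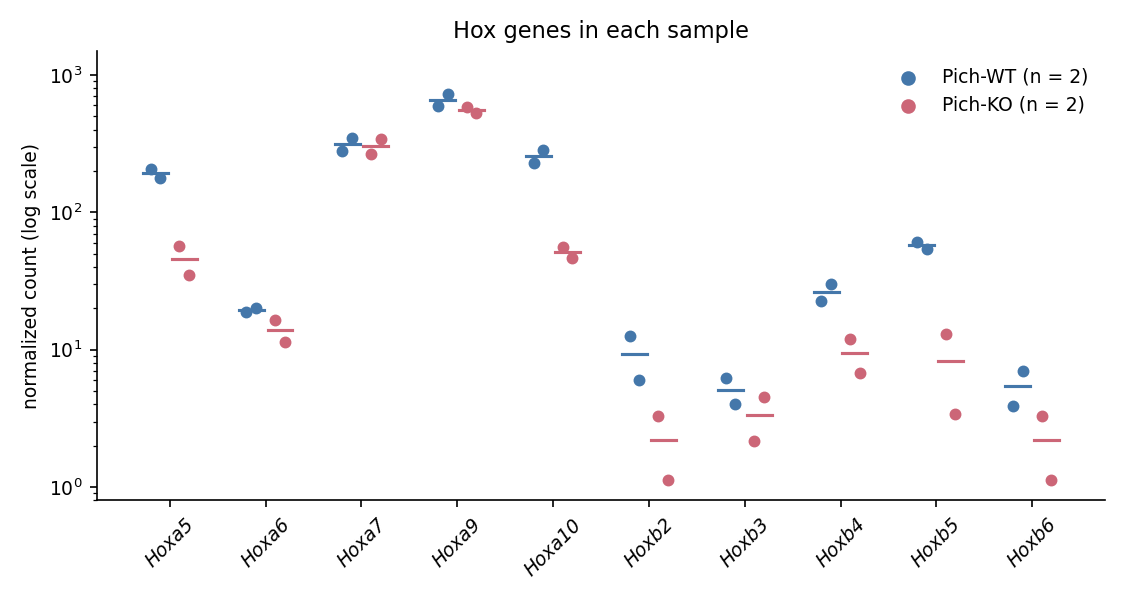
Normalized count (log scale) of the 10 Hox genes in each of the 2 Pich-WT (blue) and 2 Pich-KO (red) samples, with a line at each group's mean. Hoxa5, Hoxa10 and Hoxb5 are apart between the groups, Hoxa7 and Hoxa9 lie close together, and Hoxb2, Hoxb3 and Hoxb6 have at most 16 reads in a sample.

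To place the members of the Hoxa cluster called lower beside others that were not, the promoter sequences of Hoxa5, Hoxa10, Hoxa7 and Hoxa9 are shown. Each is 300 bases, from 250 before to 50 after a RefSeq start site, read 5′ to 3′ on the minus strand of chromosome 6 in GRCm38.p6. The positions are chr6:52204538-52204837 for Hoxa5, chr6:52234890-52235189 for Hoxa10, chr6:52218524-52218823 for Hoxa7 and chr6:52227321-52227620 for Hoxa9. Capitals mark matches on either strand to CCAAT (the box bound by NF-Y, written ATTGG where it lies on the other strand), GGGCGG (the GC box bound by SP1) and TTTATN (the core of sites read by posterior HOX proteins).
Hoxa5: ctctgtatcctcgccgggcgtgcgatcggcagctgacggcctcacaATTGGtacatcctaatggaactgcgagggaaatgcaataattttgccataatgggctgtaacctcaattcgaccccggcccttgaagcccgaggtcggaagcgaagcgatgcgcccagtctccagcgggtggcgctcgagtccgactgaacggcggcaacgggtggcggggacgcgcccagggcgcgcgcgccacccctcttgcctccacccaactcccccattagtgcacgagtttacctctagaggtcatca
Hoxa10: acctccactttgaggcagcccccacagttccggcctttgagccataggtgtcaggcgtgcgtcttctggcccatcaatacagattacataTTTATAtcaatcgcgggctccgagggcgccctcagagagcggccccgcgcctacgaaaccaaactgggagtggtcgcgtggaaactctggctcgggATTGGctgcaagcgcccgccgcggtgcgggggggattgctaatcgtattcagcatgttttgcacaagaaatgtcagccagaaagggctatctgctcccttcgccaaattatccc
Hoxa7: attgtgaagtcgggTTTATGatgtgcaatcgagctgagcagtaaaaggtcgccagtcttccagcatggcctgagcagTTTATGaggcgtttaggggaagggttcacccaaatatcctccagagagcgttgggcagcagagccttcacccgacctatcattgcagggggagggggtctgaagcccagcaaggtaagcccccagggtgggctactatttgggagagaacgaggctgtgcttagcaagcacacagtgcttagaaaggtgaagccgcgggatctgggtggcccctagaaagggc
Hoxa9: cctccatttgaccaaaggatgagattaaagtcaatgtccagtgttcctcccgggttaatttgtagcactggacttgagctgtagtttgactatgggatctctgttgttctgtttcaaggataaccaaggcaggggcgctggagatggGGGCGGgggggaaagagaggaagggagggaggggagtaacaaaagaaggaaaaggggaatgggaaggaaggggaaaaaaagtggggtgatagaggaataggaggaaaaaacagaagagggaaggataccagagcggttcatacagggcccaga
Hoxa5 and Hoxa10 each held 1 CCAAT match, 203 and 63 bases before the start site, and Hoxa7 and Hoxa9 held none. A CCAAT match is present in 37.4% of the 32817 promoters of this length. The Hoxa9 promoter held 1 GGGCGG match, a motif of 35.6% of promoters. TTTATN was found at 2 positions in the Hoxa7 promoter and at 1 in the Hoxa10 promoter shown, and in 39.9% of all promoters. The E-box CACGTG and a core of the interferon-stimulated response element were not found in these windows, and 7.15% and 3.43% of all promoters hold them. Hoxa10 has a further RefSeq start site whose window held 2 GGGCGG matches, 1 TTTATN match and no CCAAT. Among the other members, the Hoxa6 promoter held 1 CCAAT match and 5 GGGCGG matches, some of which overlap each other, and the Hoxb4 promoter held none of the 5 motifs.

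Hoxa5 encodes a HOX protein of the middle of the cluster that takes part in the balance of erythroid and myeloid progenitors. The gene lies on chromosome 6, from 52201754 to 52204587 on the minus strand. Normalized counts of Hoxa5 were 56.7 and 35.2 in Pich-KO against 208 and 178 in Pich-WT. Both Pich-KO samples were far below both Pich-WT samples. The log2 fold change was −2.08 (SE 0.30, 95% interval −2.78 to −1.38, limma adjusted p = 0.00258). Pooled over samples, the Pich-KO level was 23.7% of the Pich-WT level, with an exact counting interval of 18.5 to 30.0%, which covers counting error only.

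Hoxa10 encodes a posterior HOX protein known for promoting the expansion of stem and myeloid progenitor cells. It lies on chromosome 6, from 52231197 to 52240854 on the minus strand. Normalized counts of Hoxa10 were 55.6 and 46.6 in Pich-KO against 231 and 286 in Pich-WT, again with a wide gap between the groups. The log2 fold change was −2.31 (SE 0.25, 95% interval −2.89 to −1.73, limma adjusted p = 0.000645), the smallest adjusted p among the 10 members. The Pich-KO level was 20.1% of the Pich-WT level (exact counting interval 15.9 to 25.1%).

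Hoxb5 is known in the adult mouse as a marker of long-term hematopoietic stem cells. It lies on chromosome 11, from 96303336 to 96306121 on the plus strand. Its normalized counts were 13.1 and 3.41 in Pich-KO, from 12 and 3 reads, against 61.0 and 54 in Pich-WT, from 78 and 54 reads. The 2 Pich-KO samples differed from each other by more than did the 2 Pich-WT samples, and both were below them. The log2 fold change was −2.89 (SE 0.59, 95% interval −4.26 to −1.52, limma adjusted p = 0.0123). The Pich-KO level was 14.4% of the Pich-WT level (exact counting interval 7.85 to 24.7%).

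The 3 calls also passed with the count models run on the recovered whole reads. edgeR's quasi-likelihood test with TMM scaling called 20.7% of the genes it tested lower, and DESeq2 called 20.3%, and both called Hoxa5, Hoxa10 and Hoxb5 and none of Hoxa6, Hoxa7, Hoxa9 and Hoxb4. Hoxb2, Hoxb3 and Hoxb6 were removed by edgeR's filter on low counts and were given no adjusted p by DESeq2. In limma without the variance trend 0 members and 0 of all genes were called, with 7377 genes at an unadjusted p under 0.05, and the limma adjusted p was 0.102 for Hoxa5, 0.0852 for Hoxa10 and 0.148 for Hoxb5. With the trend and without Pich-KO sample 1 all 3 calls held. Without Pich-KO sample 2, Pich-WT sample 1 or Pich-WT sample 2, limma called 0 members and 0 of all genes tested, with 7572, 6062 and 5716 genes at an unadjusted p under 0.05, Hoxa5 and Hoxa10 among them each time. The fold changes of Hoxa5 in these 3 fits were −1.74, −1.97 and −2.19, with limma adjusted p of 0.0814, 0.259 and 0.236. Those of Hoxa10 were −2.19, −2.47 and −2.16 (limma adjusted p of 0.0732, 0.233 and 0.221), and those of Hoxb5 −2.05, −2.80 and −2.97 (limma adjusted p of 0.103, 0.333 and 0.308). edgeR on the same sets of 3 samples, added after seeing the data, called all 3 genes lower each time, with Hoxb5 at an adjusted p of 0.0228 without Pich-WT sample 1. In every such fit the lone sample of a group is assumed to vary as the other group does.

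Hoxa9 is a central HOX gene of hematopoietic stem cells and of leukemias with MLL fusions. It lies on chromosome 6, from 52223100 to 52231089 on the minus strand, between Hoxa7 and Hoxa10. Its normalized counts were 585 and 532 in Pich-KO against 592 and 725 in Pich-WT. The lower Pich-WT sample was within 8 counts of the higher Pich-KO sample, although the groups did not overlap. The log2 fold change was −0.23 (95% interval −0.61 to 0.14, limma adjusted p = 0.413), so the interval excludes a fall of the size seen in Hoxa10.

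Hoxa7, a gene of the middle of the cluster that is often expressed together with Hoxa9, lies from 52214491 to 52221854 on the minus strand of chromosome 6. The normalized counts were 266 and 344 in Pich-KO against 281 and 345 in Pich-WT, and the groups overlapped. The log2 fold change was −0.04 (95% interval −0.52 to 0.44, limma adjusted p = 0.934). The sign of this value changed when Pich-KO sample 1 or Pich-WT sample 2 was left out. In the annotation 20.4% of its exon bases are shared with the antisense RNA Hoxaas3. The library kit named in the labels does not mark strand, and reads of the 2 genes in the shared bases cannot be told apart.

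Hoxa6, the neighbor of Hoxa5, lies from 52206288 to 52208722 on the minus strand of chromosome 6. It was low in all samples, with 16.4 and 11.4 in Pich-KO against 18.8 and 20 in Pich-WT. Both Pich-KO values were below both Pich-WT values. The log2 fold change was −0.48 (95% interval −1.55 to 0.60, limma adjusted p = 0.568) and did not pass the test. Its interval includes both 0 and a 2-fold fall.

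In the Hoxb cluster, Hoxb4, which expands hematopoietic stem cells when overexpressed, lies from 96318267 to 96321638 on the plus strand of chromosome 11. Its normalized counts were 12 and 6.82 in Pich-KO against 22.7 and 30 in Pich-WT. The groups did not overlap, and the log2 fold change of −1.43 (SE 0.50, 95% interval −2.58 to −0.27) had a limma adjusted p of 0.0973 and an edgeR adjusted p of 0.0624. It therefore missed the threshold by both tools. From 11 and 6 reads in the Pich-KO samples, the Pich-KO level was 36.6% of the Pich-WT level (exact counting interval 20 to 63.6%).

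Hoxb2, Hoxb3 and Hoxb6, HOX genes of the 3′ and middle part of the Hoxb cluster that are expressed in early hematopoietic cells, had few reads in all 4 samples. Hoxb2 (chromosome 11, 96350525 to 96354012) had 3 and 1 reads in Pich-KO against 16 and 6 reads in Pich-WT. Hoxb3 (chromosome 11, 96323326 to 96347930) had 2 and 4 reads in Pich-KO against 8 and 4 in Pich-WT. Hoxb6 (chromosome 11, 96292476 to 96301569) had 3 and 1 reads in Pich-KO against 5 and 7 in Pich-WT. Only Hoxb3 overlapped between the groups in normalized counts. The limma adjusted p-values were 0.173 for Hoxb2, 0.697 for Hoxb3 and 0.422 for Hoxb6. The exact counting interval of the Pich-KO level as a share of the Pich-WT level was 19.5 to 183% for Hoxb3 and 9.94 to 140% for Hoxb6, so that no difference was detectable at this depth. For Hoxb2 it was 5.78 to 67.9%, and the test, which also takes in the spread between samples, was not passed. In the annotation 27.3% of the exon bases of Hoxb2 and 52.9% of those of Hoxb3 are shared with the antisense RNA Hoxb3os, against 3.59% of Hoxb5 with Hoxb5os and 0 of Hoxa5, Hoxa6, Hoxa10, Hoxb4 and Hoxb6.

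The order of the members was compared on normalized counts per kilobase of exon length. That length joins the exons of all annotated transcripts of a gene, and which transcripts were expressed was not determined. The order, and the shares of the summed level given below, depend on this divisor. Before division the Pich-WT means were 659 for Hoxa9, 313 for Hoxa7, 258 for Hoxa10 and 193 for Hoxa5. In Pich-WT, Hoxa9 (mean 118), Hoxa7 (109) and Hoxa5 (103) stood at the top, each overlapping the next in its range over the 2 samples. Hoxa10 (79.0) followed without overlap with Hoxa5, and then came Hoxa6 (22.2) and Hoxb5 (20.6), which overlapped. Hoxb4 (10.3) was lower than Hoxb5, and Hoxb6 (2.78), Hoxb2 (2.65) and Hoxb3 (1.21) were lowest.

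In Pich-KO the order changed. Hoxa7 (106) and Hoxa9 (100) kept the top with overlapping ranges, and the level per kilobase dropped from there to Hoxa5 (24.5), Hoxa6 (15.9) and Hoxa10 (15.6). Hoxa10, which stood well above Hoxa6 in Pich-WT, overlapped it in Pich-KO. Hoxb4 (3.67) and Hoxb5 (2.96) overlapped each other, and Hoxb6, Hoxb3 and Hoxb2 lay between 1.12 and 0.632.

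**Figure D2:**
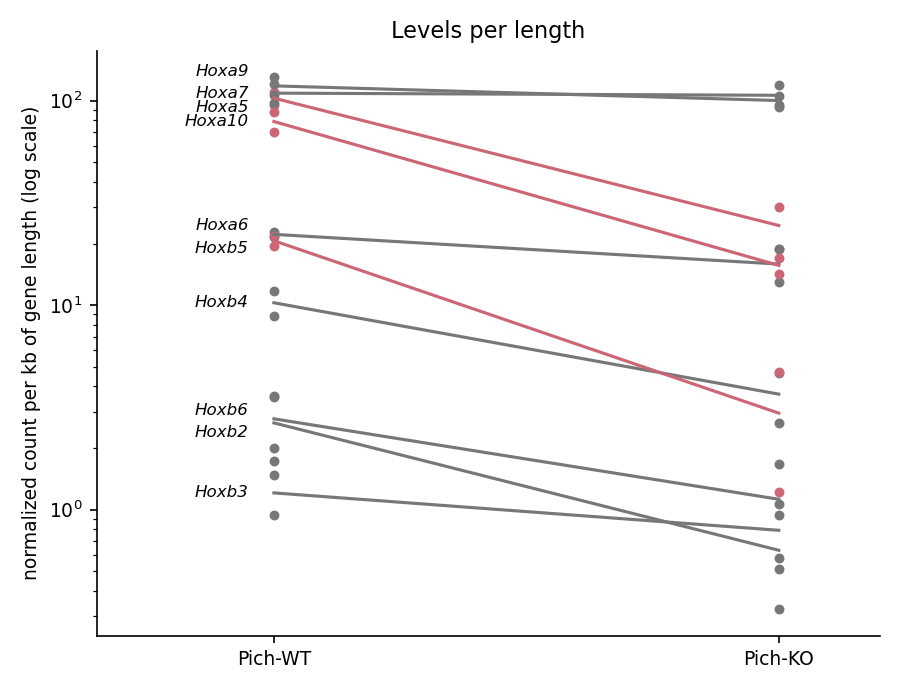
Normalized count per kilobase of exon length (log scale) of the 10 Hox genes in Pich-WT (left) and Pich-KO (right); points are the 2 samples of a group, lines join group means, and red marks the 3 genes called lower. In Pich-WT Hoxa5 (103) and Hoxa10 (79.0) stand near Hoxa9 (118), and in Pich-KO they stand at 24.5 and 15.6 below Hoxa9 at 100.

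The makeup of the Hox transcripts differed between the groups. The summed level per kilobase of the 10 genes was 276 and 267 in Pich-KO against 444 and 492 in Pich-WT. Hoxa7 and Hoxa9 together made up 71.6 and 80.6% of that sum in Pich-KO against 45.9 and 50.8% in Pich-WT. Hoxa5 and Hoxa10 together made up 17.1 and 12.4% in Pich-KO against 40.8 and 37.0% in Pich-WT. The 5 Hoxb genes made up 4.53 and 2.19% against 8.50 and 7.58%. The groups did not overlap in any of these shares. The pairs of Hoxa genes follow the calls made on the same values, so their shares restate those calls and are no further test.

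Ratios within a sample do not depend on the size factor. The reads of Hoxa10 were 9.51 and 8.76% of those of Hoxa9 in Pich-KO against 38.9 and 39.4% in Pich-WT. The reads of Hoxa5 were 9.70 and 6.62% of those of Hoxa9 in Pich-KO against 35.1 and 24.6% in Pich-WT. For Hoxb5 the shares were 2.24 and 0.641% against 10.3 and 7.45%. In each of the 3 ratios the groups were apart. The genes set against Hoxa9 were those called lower, so the gap restates the calls.

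**Figure D3:**
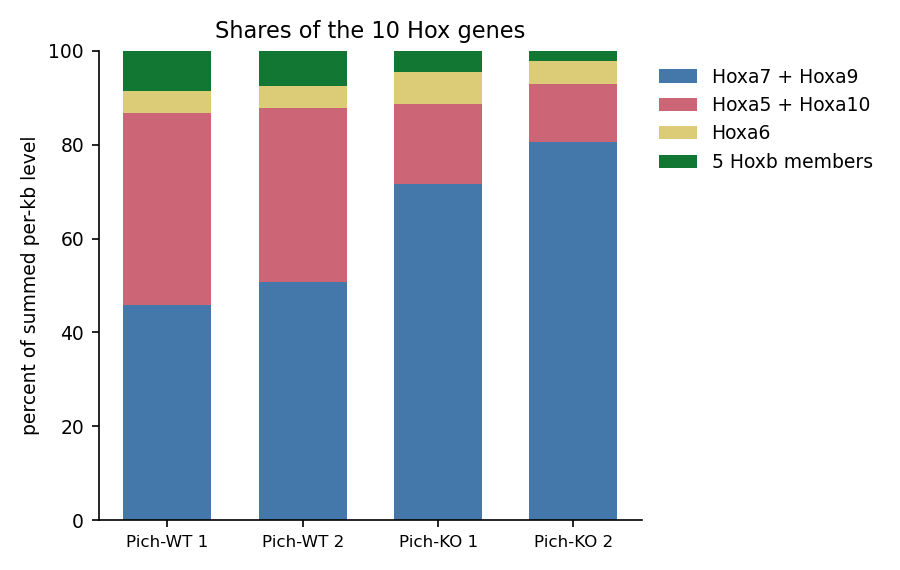
Share of the summed normalized count per kilobase of the 10 Hox genes held by Hoxa7 with Hoxa9, Hoxa5 with Hoxa10, Hoxa6 and the 5 Hoxb genes, in each of the 4 samples. Hoxa7 with Hoxa9 hold 45.9 and 50.8% in the Pich-WT samples and 71.6 and 80.6% in the Pich-KO samples.

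Along the Hoxa cluster, the members called lower were not neighbors. Hoxa5 and Hoxa10 were called lower, and Hoxa6, Hoxa7 and Hoxa9, which lie between them, were not. The interval of Hoxa6 includes both 0 and a 2-fold fall, so its missing call does not show an unchanged level. Of the other Hox genes, 26 of 29 were in the table and 20 passed the filter, with 2 called lower and 0 called higher, a median log2 fold change of −0.52 and 14 negative values. Hoxa3, a gene of pharyngeal and thymus development, read 25.1 and 23.9 in Pich-KO against 67.2 and 71 in Pich-WT and was called lower (log2 fold change −1.46, SE 0.33, limma adjusted p = 0.018). Hoxa2 read 8.73 and 3.41 against 7.03 and 25, and with overlapping groups was not called (limma adjusted p = 0.38). Hoxa3 was not called by limma without any one of the 4 samples, nor by edgeR without Pich-WT sample 1 or Pich-WT sample 2.

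**Figure D4:**
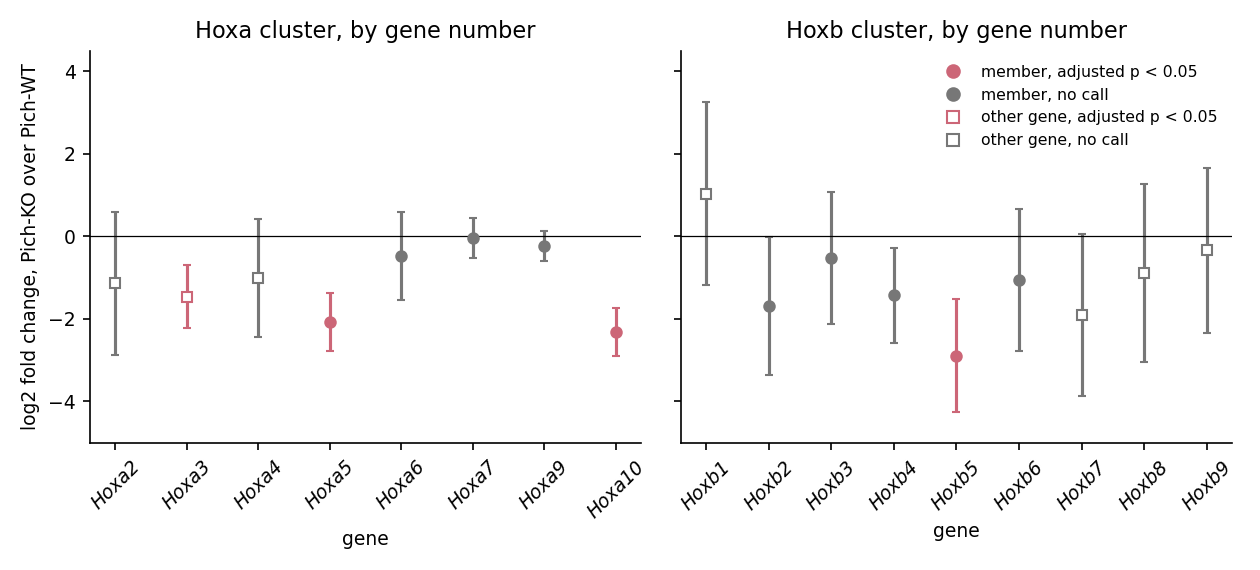
Log2 fold change of Pich-KO over Pich-WT with its 95% interval for the Hoxa genes (left) and Hoxb genes (right), ordered by gene number; filled circles are the 10 members, open squares other Hox genes of these clusters, and red marks an adjusted p under 0.05. Hoxa3, Hoxa5, Hoxa10 and Hoxb5 are red, and Hoxa6, Hoxa7 and Hoxa9 between Hoxa5 and Hoxa10 have intervals that include 0.

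RNAs of the clusters without a protein were few in reads. Hotairm1, which is transcribed from the 3′ end of the Hoxa cluster in myeloid cells, read 8.73 and 15.9 in Pich-KO against 21.1 and 10 in Pich-WT. Hoxaas3 read 6.54 and 33.0 in Pich-KO against 10.2 and 14 in Pich-WT, so the Pich-KO samples lay on both sides of Pich-WT. Neither RNA was called (limma adjusted p of 0.81 and 0.841). The Pich-KO sample that was high in Hoxaas3 was also the higher in Hoxa7, with which it shares exon bases. Of 12 genes flanking the clusters, 2 were lower and 1 was higher, with a median of −0.20. Copz2, a coat protein gene, had the lowest fold change, with 32.7 and 10.2 against 229 and 154 (log2 fold change −3.28, SE 0.51, limma adjusted p = 0.00356). It starts at 96849870 on chromosome 11, whereas Hoxb1 ends at 96368256, and other genes of this list lie between them. Cbx1, a heterochromatin protein gene, read 1709 and 1852 against 1220 and 1168 (log2 fold change 0.58, SE 0.12, limma adjusted p = 0.011). Without Pich-KO sample 1, 1 flanking gene was called lower and 0 higher.

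The genes of the TALE cofactors, partners of HOX proteins on DNA, were tested as a list of 9. Of the 9, 5 were lower, among them Meis2, Meis3, Pbx2 and Pbx3, 0 were higher, and the median was −0.88. Meis2 read 30.5 and 15.9 in Pich-KO against 276 and 211 in Pich-WT (log2 fold change −3.39, SE 0.36, limma adjusted p = 0.000611). Meis1, the MEIS gene with the highest counts and the partner of HOXA9, read 1375 and 932 against 1510 and 1876, with a log2 fold change of −0.57 and a limma adjusted p of 0.0932. With a pseudocount of 0.1 or without the filter on low values, 3 of the 9 were called, and without Pich-KO sample 1, 2 were.

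Of 21 genes known to hold Hox genes active, 4 were higher and 2 lower, with a median of 0.10. Hcfc1, a subunit shared by MLL-type complexes, was higher in Pich-KO (4625 and 3771 against 1422 and 1386, log2 fold change 1.57, SE 0.12, limma adjusted p = 0.000154). Mllt3, which encodes the YEATS-domain protein AF9 of human hematopoietic stem cells, was lower (370 and 282 against 796 and 894, log2 fold change −1.38, SE 0.18, limma adjusted p = 0.0015). Of 30 Polycomb genes, 7 were higher and 5 lower, with a median of −0.10. Pcgf3, a subunit of a variant PRC1, was higher by 0.62 (SE 0.17, limma adjusted p = 0.0423), and Phc2, a subunit of canonical PRC1, had a log2 fold change of −1.78 (SE 0.28, limma adjusted p = 0.00357). Without the filter on low values 2 activators and 2 Polycomb genes were called higher. Without Pich-KO sample 1, limma called 1 activator higher and 1 lower, and 0 Polycomb genes higher and 1 lower. Over all alternatives the number of Polycomb genes called higher ran from 0 to 11.

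Targets of HOXA9 and MEIS1 known from leukemia and progenitor cells moved in both directions, with 3 of 12 higher, 4 lower and a median of −0.29. Cdk6, a cell cycle kinase, read 2292 and 2818 in Pich-KO against 1057 and 1096 in Pich-WT (log2 fold change 1.24, SE 0.13, limma adjusted p = 0.000587). Sox4, a transcription factor of immature blood cells, read 1262 and 430 against 3300 and 3292 (log2 fold change −2.16, SE 0.41, limma adjusted p = 0.00838). Without Pich-KO sample 1, 1 target was called higher and 2 lower.

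The Hox genes that fell did so beside genes of long-term hematopoietic stem cells, of which 10 of 11 were lower and 0 were higher, with a median of −1.65. Esam, an adhesion molecule of stem cells and also of endothelium, read 353 and 131 in Pich-KO against 3556 and 2641 in Pich-WT (log2 fold change −3.83, SE 0.40, limma adjusted p = 0.00053). Gata2, a transcription factor of stem and progenitor cells, read 1287 and 1030 against 1597 and 1852 (log2 fold change −0.58, SE 0.15, limma adjusted p = 0.0317). Tek is on both the stem cell and the endothelial list. Without Pich-KO sample 1, 6 of the 11 were called lower. Of 7 genes of multipotent progenitors, 1 was higher and 0 were lower, with a median of 0.11, 3 negative and 4 positive fold changes. The higher gene was Notch1, a receptor of lymphoid fate (2155 and 1524 against 846 and 671, log2 fold change 1.27, SE 0.19, limma adjusted p = 0.00305). In DESeq2, and in limma with at least 10 reads in every sample, 1 of the 7 was called lower. With a replicate block 2 were, so the absence of lower genes on this list depended on the fit. The lists of stem cell, endothelial, macrophage and erythroid genes moved in the same direction as Hoxa5, Hoxa10 and Hoxb5, and their part in the fall of these genes was not tested.

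**Figure D5:**
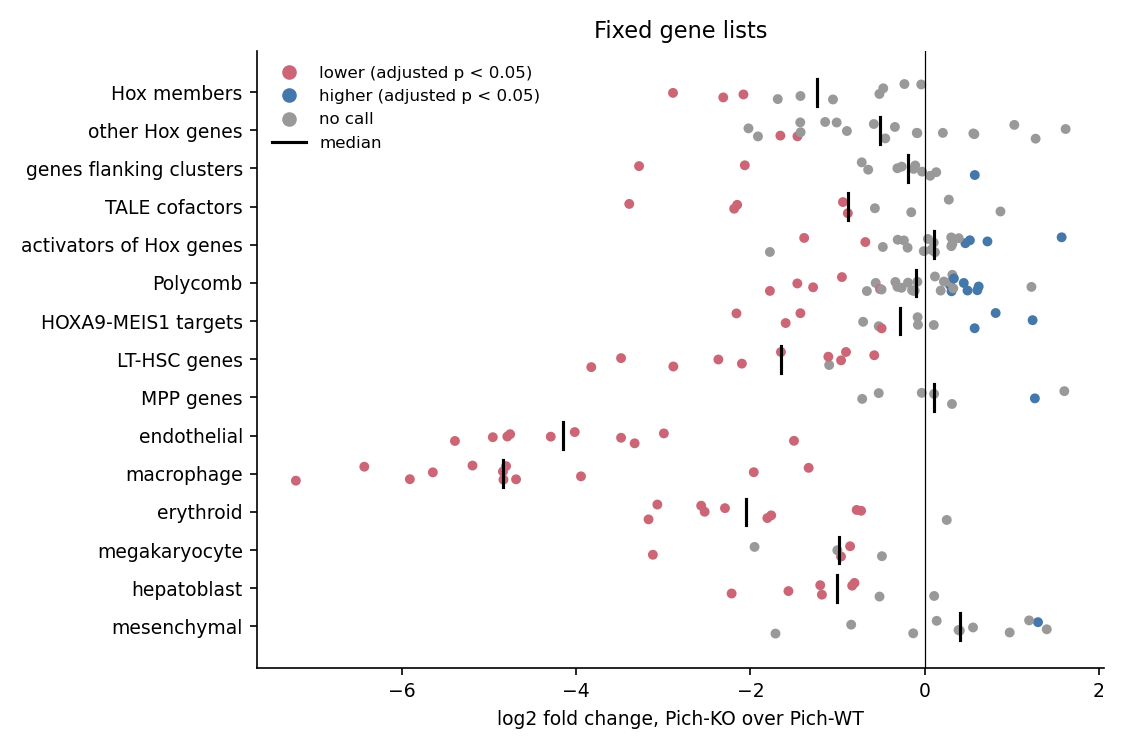
Log2 fold change of Pich-KO over Pich-WT for every tested gene of each list, with the list's median as a black bar; red is lower and blue higher at an adjusted p under 0.05, grey is no call, and the vertical spread within a row only separates points. The Hox members have a median of −1.24, the long-term stem cell (LT-HSC) list one of −1.65, and the endothelial and macrophage lists lie furthest to the left with medians of −4.15 and −4.84.

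The genes outside the clusters whose pattern over the 4 samples was most like the mean of the 10 members were Ppp3ca, Herc3 and Ehd1, among 10540 genes with a mean of at least 100. Likeness was the Euclidean distance of log2 values centred on each gene's mean, and it was 0.0351 for Ppp3ca, 0.067 for Herc3 and 0.078 for Ehd1. It is a description only, since it rests on 4 values per gene among many candidates. The mean it refers to joins members with log2 fold changes from −2.89 (Hoxb5) to −0.04 (Hoxa7). Ppp3ca, the catalytic subunit of calcineurin, read 1370 and 996 in Pich-KO against 2800 and 2915 in Pich-WT. Herc3, a HECT-type ubiquitin ligase, read 104 and 71.6 against 202 and 201, and Ehd1, a gene of endocytic recycling, read 1420 and 1007 against 3025 and 2857.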

How the data were processed

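RNA sequencing libraries of LSK cells were made from total RNA with an Illumina TruSeq RNA kit. The table the authors deposited holds, for each gene and sample, a signal made by dividing read counts by 1 size factor per sample, with gene lengths and coordinates. Of its 39186 genes, 39131 were found in GENCODE M21 (GRCm38), 97.8% of these with the same start and end. The submitters' processing notes name Bowtie 0.12.2 and the builds mm8 and mm9, and the counter and strand setting are not given in the sources used here. The authors' deposited fold changes and p-values were not used. Multiplying back by the size factor gave whole reads for 100% of values (within 0.01 of a whole number), in total 15195434 and 14703215 for Pich-KO and 20933919 and 15567891 for Pich-WT. The chi-square of replicate against replicate, divided by its degrees of freedom, was 14.7 for Pich-KO and 8.18 for Pich-WT, so replicates exceeded counting noise and were not treated as 1 library deposited again, which does not show whether they are separate embryos or cultures.

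Genes with a mean of at least 1 were tested with limma 3.58.1 (R 4.3.3, empirical Bayes with a variance trend) on log2(value + 1), with Benjamini-Hochberg adjustment, and fold changes on this scale understate those of low genes. Alternatives were edgeR 4.0.16 (TMM, upper quartile) and DESeq2 1.42.0 on the recovered reads, a pseudocount of 0.1, no filter, at least 10 reads in every sample, no variance trend, a replicate block and leaving out each sample in turn. The scripts were tested on simulated data. Counting intervals are exact conditional intervals at 95%. The members and gene lists were chosen with earlier results of these data known. Named genes were the 10 members, other Hox genes and cluster RNAs with a mean of at least 10, the genes of each further list with the largest and smallest fold change past the threshold, Kit, Ly6a, Ercc6l and the 3 genes nearest in pattern. Some genes that this rule names are not reported here. Promoter sequences were taken from RefSeq for 6 of the 10 members (7 start sites), and those of Hoxb2, Hoxb3, Hoxb5 and Hoxb6 and all protein sequences were not analysed here.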

Additional observations from a re-analysis of the deposited data

How the results depend on the processing

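Of 137 fold changes of members with an adjusted p under the alternatives, 121 kept direction and side of the threshold, 12 lost the call and 4 changed sign. The sign changes were all of Hoxa7, 0.15 without Pich-KO sample 1 and 0.11 without Pich-WT sample 2 in limma, and 0.17 and 0.15 in edgeR (TMM) for the same samples, an alternative chosen after seeing the data, and with 1 sample left out the values of Hoxa7 lay between −0.22 and 0.17. The 12 lost calls were of Hoxa5, Hoxa10 and Hoxb5 in limma, without the variance trend and without Pich-KO sample 2, Pich-WT sample 1 or Pich-WT sample 2. Without the variance trend 0 members and 0 of all genes were called lower and 0 higher, with 7377 genes and 5 members at an unadjusted p under 0.05; the cause of that loss was not tested. With 1 sample left out at a time, limma called 0 to 3 members lower, 0 to 1193 genes lower and 0 to 548 higher, and edgeR called 3 members lower each time, 2270 to 3917 genes lower and 1717 to 3685 higher. With at least 10 reads in every sample Hoxb2, Hoxb3, Hoxb4, Hoxb5 and Hoxb6 could not be tested, and 2 members were called lower. The replicate numbers did not pair the samples (correlation of deviations 0.013 over 10544 genes), and a replicate block gave 3 members lower, 3874 genes lower and 3122 higher. Depth limits Hoxb3 and Hoxb6, which had at most 8 reads in a sample.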
